A study of Mus musculus with 12 samples.

Results

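The genes described here are the heat shock proteins and DnaJ co-chaperones, taken as every measured gene whose symbol starts with Hspa, Hspb, Hspd, Hspe, Hsph or Hsp90, or with Dnaja, Dnajb or Dnajc and a number: 61 of the 12393 genes with a probe set of their own, 23 of them Hsp genes and 38 Dnaj genes. By family they are 11 HSP70 genes (Hspa), 1 HSP110 gene (Hsph1), 2 HSP90 genes (Hsp90aa1 and Hsp90b1), 6 genes with an Hspb symbol, 2 mitochondrial chaperonin genes (Hspd1 and Hspe1), the exchange factor gene Hspbp1, and 4 Dnaja, 12 Dnajb and 22 Dnajc genes. RNA was measured on 12 arrays of cultured fetal C57BL/6 mouse kidneys, 6 with activated beta-catenin, whose source label adds that they carry tumors, and 6 wildtype. All kidneys came from dams injected with tamoxifen at 10.5 dpc (days post coitum), 2 mg per 40 g of body weight, so the wildtype kidneys had the drug too. They were dissected at 10.5 dpc and cultured for 3 to 4 days on membranes. The F12/DMEM medium held 5 µg/mL of transferrin, 5 µg/mL of insulin and 5 ng/mL of selenium, and no serum is mentioned. The labels do not name the Cre driver, the cells in which beta-catenin was activated, or the kidneys that had 3 or 4 days. The numbers in the array titles fall into 2 separate runs, called here the higher and the lower run after those numbers, each with 3 activated and 3 wildtype arrays. What the runs stand for is not stated, nor whether the arrays are separate litters or cultures, so p-values measure the spread between these arrays, which may be technical.

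Heat shock proteins are chaperones: HSP70 binds unfolded stretches of other proteins and releases them in a cycle driven by ATP, DnaJ proteins deliver substrates and start the ATP step through their J domain, and exchange factors such as HSP110 end it. HSP90 then matures kinases and steroid receptors, small heat shock proteins hold unfolding proteins, and separate sets of chaperones serve the endoplasmic reticulum (ER) and the mitochondria. Some members are made at all times, while others are induced by the heat shock factor HSF1, which binds inverted GAA repeats called heat shock elements, or by the ER unfolded protein response, whose factors bind the ER stress element.

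The stretches upstream of 6 of these genes are printed as examples. Each carries an element of either kind and belongs to a gene whose level differed between the runs. Dnajb4 also has a match and differed between the runs, and it is not printed. The printed stretches are the 250 bases before the RefSeq transcript start on GRCm38.p6. They are written 5′ to 3′ on the strand of the gene, with the element in capitals. Hspa1b (chr17:34959239-34959488, minus strand) and Hspa1a (chr17:34972157-34972406, minus strand) encode the stress-inducible HSP70, and each holds 1 head-to-head pair. Hspb1 (chr5:135887669-135887918, plus strand) encodes a small heat shock protein and holds 2 such pairs. Hsph1 (chr5:149636316-149636565, minus strand) encodes HSP110 and holds a tail-to-tail pair. Hsp90b1 (chr10:86705445-86705694, minus strand) encodes the HSP90 of the ER and holds 2 ER stress elements, the second on the opposite strand. Hspe1 (chr1:55087898-55088147, plus strand) encodes the mitochondrial co-chaperonin and holds overlapping pairs.
Hspa1b: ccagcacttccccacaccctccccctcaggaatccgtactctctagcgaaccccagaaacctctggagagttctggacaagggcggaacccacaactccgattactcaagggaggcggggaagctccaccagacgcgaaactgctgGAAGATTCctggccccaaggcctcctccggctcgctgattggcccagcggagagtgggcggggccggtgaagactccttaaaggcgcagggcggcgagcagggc
Hspa1a: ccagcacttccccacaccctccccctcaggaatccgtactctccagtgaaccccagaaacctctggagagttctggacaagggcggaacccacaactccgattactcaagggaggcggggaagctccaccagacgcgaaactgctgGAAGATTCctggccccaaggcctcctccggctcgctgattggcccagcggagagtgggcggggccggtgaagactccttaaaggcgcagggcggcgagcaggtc
Hspb1: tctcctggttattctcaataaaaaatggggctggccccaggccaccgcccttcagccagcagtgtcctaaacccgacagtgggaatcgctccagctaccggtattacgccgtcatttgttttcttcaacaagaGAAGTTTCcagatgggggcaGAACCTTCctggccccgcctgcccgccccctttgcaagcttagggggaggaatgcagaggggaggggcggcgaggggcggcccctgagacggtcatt
Hsph1: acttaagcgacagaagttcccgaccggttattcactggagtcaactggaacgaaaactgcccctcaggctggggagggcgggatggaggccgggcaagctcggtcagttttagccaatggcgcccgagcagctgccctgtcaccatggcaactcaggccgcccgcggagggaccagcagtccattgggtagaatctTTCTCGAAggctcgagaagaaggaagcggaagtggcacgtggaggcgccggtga
Hsp90b1: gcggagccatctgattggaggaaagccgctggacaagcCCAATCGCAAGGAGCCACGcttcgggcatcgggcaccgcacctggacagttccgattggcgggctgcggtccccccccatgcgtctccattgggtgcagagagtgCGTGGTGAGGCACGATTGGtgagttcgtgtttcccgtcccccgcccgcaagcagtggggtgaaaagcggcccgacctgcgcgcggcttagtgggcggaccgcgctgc
Hspe1: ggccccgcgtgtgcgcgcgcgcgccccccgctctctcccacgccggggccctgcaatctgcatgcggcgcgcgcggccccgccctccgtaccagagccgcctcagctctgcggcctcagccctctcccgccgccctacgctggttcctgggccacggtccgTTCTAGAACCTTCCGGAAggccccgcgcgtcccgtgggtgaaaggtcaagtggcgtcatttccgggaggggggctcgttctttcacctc

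Hspa1a and Hspa1b were identical at 247 of the 250 bases, and both had the head-to-head pair GAANNTTC at -104 to -97 from the start. Of the 61 genes, 50 had a RefSeq window, and 64 windows were searched on both strands. The head-to-head pair lay in 10 of 50 genes (20%), against 7.73% of 27025 genes with a window of this length. The tail-to-tail pair TTCNNGAA lay in 6 of 50 genes (12%), against 8.11% of all genes. A stretch of 3 alternating GAA and TTC units, each 2 bases apart and so overlapping both pairs, lay upstream of Dnajb6, Hspd1 and Hspe1 (6%), against 0.514% of all genes. Hspd1 and Hspe1 lie back to back, and their windows share this stretch. The ER stress element, CCAAT and CCACG with 9 bases between them, lay upstream of Hspa5, Hsp90b1 and Dnajc3 (6%), against 0.13% of all genes, and all 3 encode ER chaperones or their partners. A match describes these letters only, and binding was not measured.

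**Figure D1:**
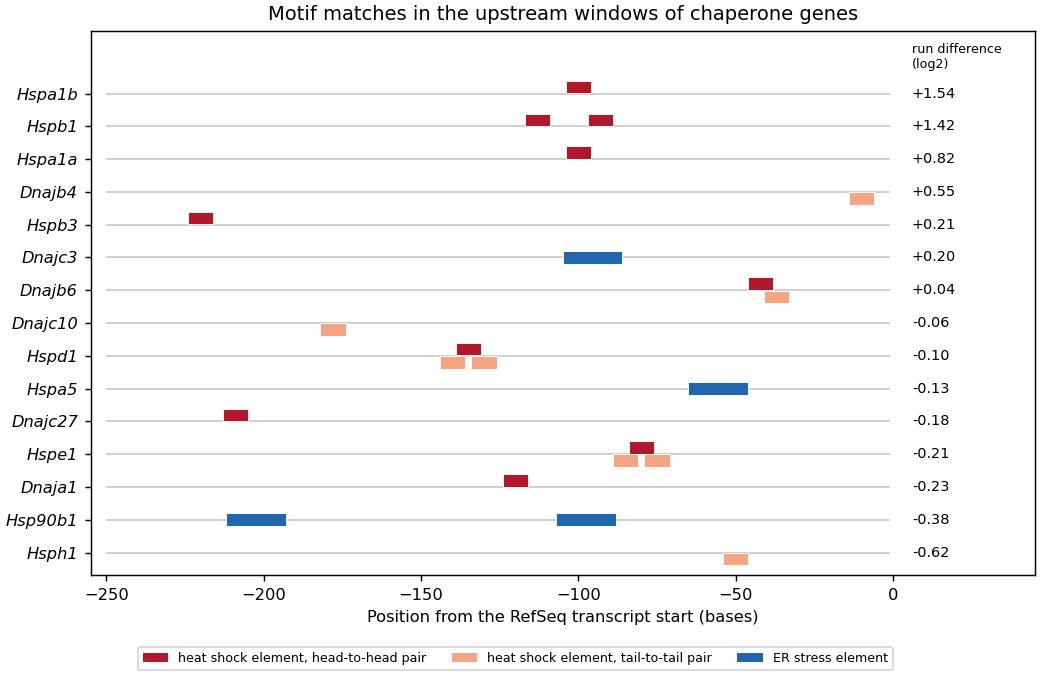
Position of each match in the 250-base window of 15 genes with a match, in bases from the RefSeq start, with the run difference of each gene at the right (log2, higher minus lower run). One window is drawn per gene, so Dnaja4, whose matches lie in its second window, is not drawn. Hspa1b, Hspb1 and Hspa1a, all with head-to-head pairs, have the largest positive differences of the genes drawn. Dnajb6 and Hspb3 have such pairs and smaller positive differences, while Dnaja1, Hspe1, Dnajc27 and Hspd1 have such pairs and negative differences.

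Values are log2(intensity + 16) after quantile normalisation, for the brightest probe set of each gene. A probe set's level depends on its probes, so genes are compared only by their differences. The 61 genes had 122 probe sets, and 9 genes (Hspa1l, Hspb3, Hspb7, Dnajb3, Dnajb7, Dnajb8, Dnajb13, Dnajc5b and Dnajc17) had every genotype and run mean below 5.45, the brightest bacterial control reading. The remaining 52 had at least 1 such mean above that limit. Among kidney markers, Six2 and Cited1 (nephron progenitors), Wt1, Foxd1 and Pdgfra (stroma) and Calb1 (ureteric bud) had 12-array means above the same limit, and Nphs1, Ret, Wnt9b and Hoxb7 had 12-array means below it.

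No chaperone gene was detectably changed by activation of beta-catenin. None of the 61 genes passed an adjusted p of 0.05 (limma, Benjamini-Hochberg over all genes) in activated against wildtype kidneys over all 12 arrays, where 0.0242% of all genes passed. With the run as a term, 0 of 61 passed, against 0.105% of all genes. The same count was 0 of 61 within the higher run (0.00807% of all genes) and 0 of 61 within the lower run (0.597%). At an unadjusted p under 0.05, limma called 1, 3, 3 and 2 of the 61 in these 4 fits, or 1.64%, 4.92%, 4.92% and 3.28%, against 6.15%, 8.79%, 6.36% and 7.07% of all genes. The median difference of the 61 genes was 0.01 with the run as a term, against -0.01 over all genes, and 33 of the 61 were higher in activated kidneys.

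Hspa8 and Hsp90aa1, read by their brightest probe sets, had differences close to 0 between the genotypes. Hspa8, the constitutive HSP70, averaged 13.10 ± 0.12 in activated and 13.09 ± 0.19 in wildtype kidneys (SD, n = 6 each), a difference of 0.01 with a 95% interval of -0.14 to 0.16. Hsp90aa1, the inducible cytosolic HSP90, averaged 12.12 ± 0.13 in activated and 12.10 ± 0.20 in wildtype kidneys, with an interval of -0.08 to 0.14. Both intervals leave out changes of 0.2 in either direction, but only for these probe sets. Other probe sets of Hspa8 differed by 0.15, 0.22 and 0.14, and those of Hsp90aa1 by -0.05 and 0.01. The stress-inducible genes had wider ones: Hspa1b differed by -0.13 (-0.33 to 0.06) and Hspb1 by -0.17 (-0.62 to 0.27). Hsph1 averaged 9.67 in both genotypes, with an interval of -0.17 to 0.16. Over the 11 HSP70 genes the differences ran from -0.26 (Hspa12b) to 0.21 (Hspa14) with a median of -0.04, and that over the 6 Hspb genes was 0.08.

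Among the ER genes, Dnajb11, a DnaJ partner of the ER HSP70, had the smallest unadjusted p of the 61. It read 8.29, 8.09 and 8.10 in activated kidneys of the higher run and 8.33, 8.72 and 8.40 in those of the lower run, against 7.93, 7.90 and 8.14 and 8.05, 8.02 and 8.12 in wildtype kidneys of the same runs. The genotypes overlapped in the higher run and were apart in the lower run. The difference was 0.30 ± 0.11 (SE) with the run as a term, at an unadjusted p of 0.0146 and an adjusted p of 0.409. Hspa5, the ER HSP70 itself, averaged 12.71 ± 0.09 in activated and 12.64 ± 0.10 in wildtype kidneys, a difference of 0.07 (-0.03 to 0.17). Hsp90b1 differed by 0.05 (-0.11 to 0.21). Dnajb9, which helps to clear misfolded ER proteins, differed by 0.17, Dnajc10, an ER disulfide reductase, by 0.02, and Dnajc3, an ER co-chaperone of Hspa5, by -0.01, all with an adjusted p of at least 0.652.

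In the mitochondria, Hspd1, the chaperonin, averaged 11.14 ± 0.07 in activated and 11.27 ± 0.12 in wildtype kidneys, a difference of -0.14 at an unadjusted p of 0.0467 and an adjusted p of 0.562. Its partner Hspe1 differed by 0.01 (-0.12 to 0.14). Hspa9, the mitochondrial HSP70, differed by -0.04 and Dnaja3, its DnaJ partner, by -0.14. Of the cytosolic DnaJ genes, Dnajb1, the main heat-inducible one, differed by 0.01 (-0.17 to 0.18) and Dnaja1 by 0.05 (-0.11 to 0.20). Dnajc24, which takes part in making diphthamide, a modified residue of a translation factor, averaged 7.74 ± 0.24 in activated and 7.46 ± 0.18 in wildtype kidneys, at an adjusted p of 0.562. Hspbp1, an HSP70 exchange factor, differed by 0.22 at an adjusted p of 0.735.

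**Figure D2:**
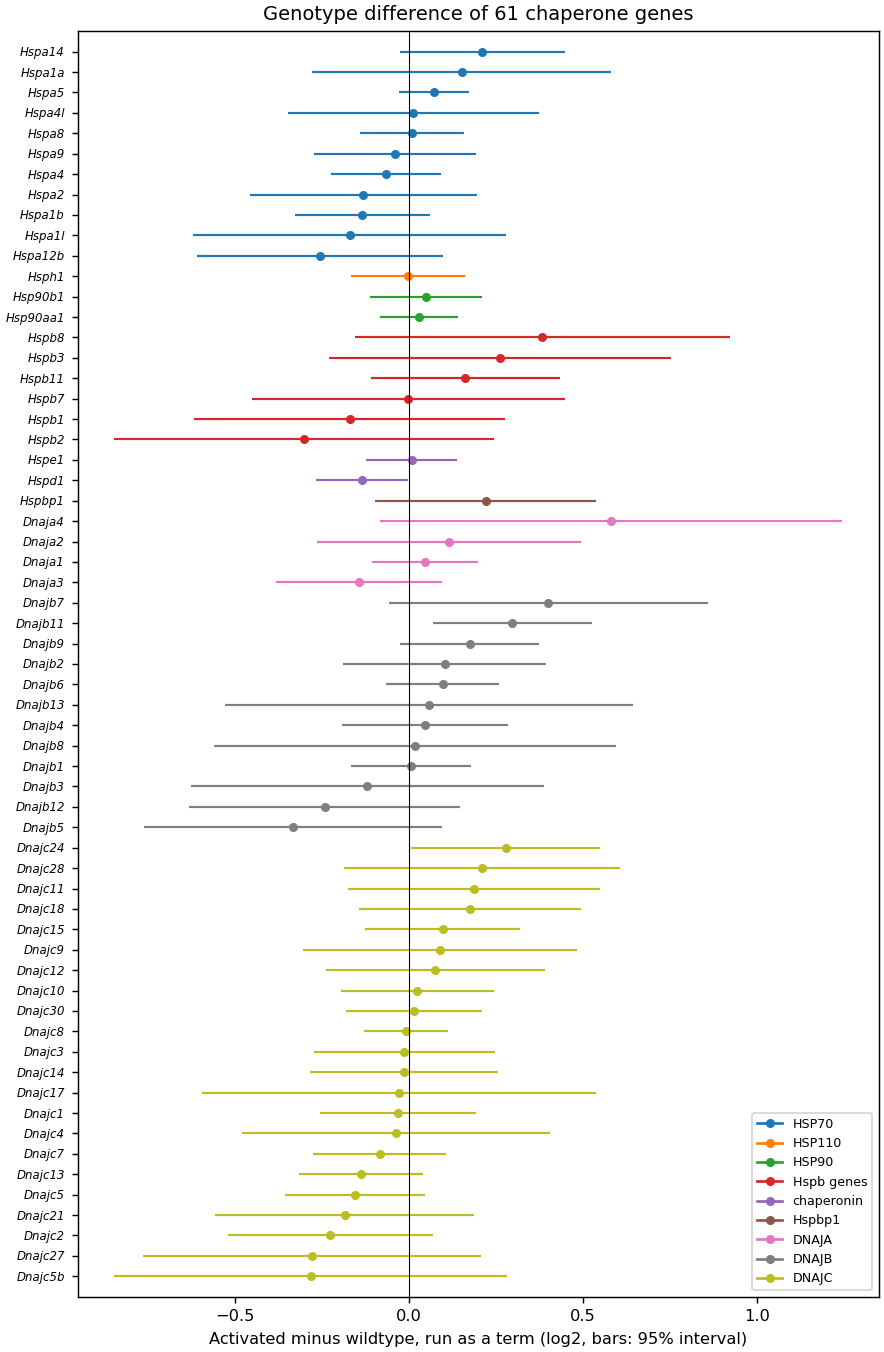
Activated minus wildtype difference (log2) of each of the 61 genes with the run as a term, grouped by family; points are estimates and bars are 95% intervals. Most intervals cover 0, those of Dnajb11, Dnajc24 and Hspd1 do not, and no gene passed after adjustment.

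In the higher run 5 of the 61 genes did not overlap between the genotypes, or 8.20%, against 11.3% of all genes: Dnajb7, Dnajc24 and Dnajc7 lay higher in activated kidneys (4.92%, against 5.6% of all genes) and Dnajc5 and Hspa1b lower (3.28%, against 5.73%). In the lower run 6 did not overlap, or 9.84%, against 12.5% of all genes: Dnajb11 and Dnajb9 lay higher in activated kidneys (3.28%, against 5.41%) and Dnaja3, Dnajb5, Dnajc13 and Hspd1 lower (6.56%, against 7.09%). No gene was in both sets, and 0 of the 61 separated over all 12 arrays (0.5% of all genes). The genotype difference had the same sign in both runs for 40 of 61 genes (65.6%), against 55.4% of all genes. The genotype difference itself did not differ detectably between the runs for any of the 61 (0 past the adjusted p, against 0.331% of all genes). At an unadjusted p under 0.05, limma called 3 of them, Dnajb5, Dnajb8 and Dnajc7, against 6.11% of all genes.

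Between the runs, chaperone genes differed in both directions. With the genotype as a term, 12 of the 61 genes (19.7%) passed an adjusted p of 0.05 between the higher and the lower run, against 11.1% of all genes. Of these, 6 were higher in the higher run (9.84%, against 6.94% of all genes): Hspa1b, Hspb1, Hspa1a, Dnajb4, Hspa9 and Dnajc5. The other 6 were lower in the higher run (9.84%, against 4.19%): Hsph1, Hspa14, Hspb11, Hsp90b1, Hsp90aa1 and Hspe1. With each array centred on its median instead, 8 genes passed, 5 higher and 3 lower. The share of all genes under that setting is not given here, so this count describes the 61 genes only. The median of the 61 differences was -0.02, and that of all genes was -0.02. At an unadjusted p under 0.05, 18 of the 61 (29.5%) differed, against 24% of all genes.

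Both inducible HSP70 genes were higher in the higher run, and Hspa1b had the largest difference of the 61 genes. Hspa1b read 10.31, 10.25 and 10.18 in activated and 10.52, 10.58 and 10.37 in wildtype kidneys of the higher run, against 8.77, 8.69 and 8.99 in activated and 9.02, 8.87 and 8.63 in wildtype kidneys of the lower run. Every array of the higher run lay above every array of the lower run, by more than 1 log2 unit. The difference was 1.54 ± 0.09 (SE), or 2.91-fold on this scale, at an adjusted p of 5.51e-08. Hspa1a read 6.81, 6.94 and 7.0 in activated and 6.77, 7.44 and 6.77 in wildtype kidneys of the higher run, against 6.35, 6.17 and 6.45 in activated and 6.39, 6.15 and 5.30 in wildtype kidneys of the lower run. The runs did not overlap, wildtype replicate 3 of the lower run was lowest, and the difference was 0.82 ± 0.20 at an adjusted p of 0.0152. The coding sequences of the pair are nearly the same, so a probe set of one may also bind RNA of the other. Hspa8 differed by -0.17 (adjusted p 0.149) and did not pass, but its value depended on the scaling and the probe set: it was -0.46 on the values as deposited (adjusted p 0.00464) and -0.36 as the mean of its 4 probe sets (adjusted p 0.0297). Hspa4, a cytosolic relative that acts as an exchange factor, differed by 0.13 (adjusted p 0.31).

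Hspb1, the small heat shock protein that binds unfolding proteins and actin filaments, was higher in the higher run too. It read 9.38, 10.08 and 10.58 in activated and 10.46, 10.60 and 9.83 in wildtype kidneys of the higher run, against 8.81, 9.09 and 8.24 in activated and 8.32, 9.0 and 8.97 in wildtype kidneys of the lower run. The runs did not overlap, although activated replicate 4 of the higher run came within 0.3 of the lower run. The difference was 1.42 ± 0.21, or 2.67-fold, at an adjusted p of 0.000369. Hspb8, a small heat shock protein of the autophagy pathway, averaged 7.38 ± 0.55 in the higher and 6.98 ± 0.51 in the lower run (SD, n = 6 each), at an adjusted p of 0.372. Hspb11, which despite its symbol is a subunit of the intraflagellar transport complex of cilia, averaged 8.36 ± 0.23 in the higher and 8.82 ± 0.23 in the lower run, a difference of -0.46 ± 0.13 at an adjusted p of 0.0283. Hspb2, Hspb3 and Hspb7 differed by 0.15 to 0.26 and did not pass.

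Hsph1, Hsp90aa1 and Hsp90b1 moved the other way. Hsph1 read 9.48, 9.29 and 9.49 in activated and 9.26, 9.32 and 9.32 in wildtype kidneys of the higher run, against 9.98, 9.88 and 9.89 in activated and 10.11, 9.97 and 10.04 in wildtype kidneys of the lower run. The runs lay apart without overlap in both genotypes, and the difference was -0.62 ± 0.08 at an adjusted p of 7.58e-05. Hsp90aa1 read 12.07, 12.01 and 11.97 in activated and 11.88, 12.02 and 11.88 in wildtype kidneys of the higher run, against 12.16, 12.22 and 12.30 in activated and 12.30, 12.30 and 12.20 in wildtype kidneys of the lower run. The gap between the runs was narrow, and the difference was -0.27 ± 0.05 at an adjusted p of 0.00308 (-0.46 on the values as deposited). Hsp90b1 read 10.16, 10.21 and 10.08 in activated and 10.27, 10.33 and 10.02 in wildtype kidneys of the higher run, against 10.55, 10.65 and 10.69 in activated and 10.55, 10.46 and 10.42 in wildtype kidneys of the lower run. Again no array overlapped, and the difference was -0.38 ± 0.08 at an adjusted p of 0.00418. Hsph1 thus differed in the opposite direction to Hspa1b and Hspb1, and the part of HSF1 in these differences was not tested.

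**Figure D3:**
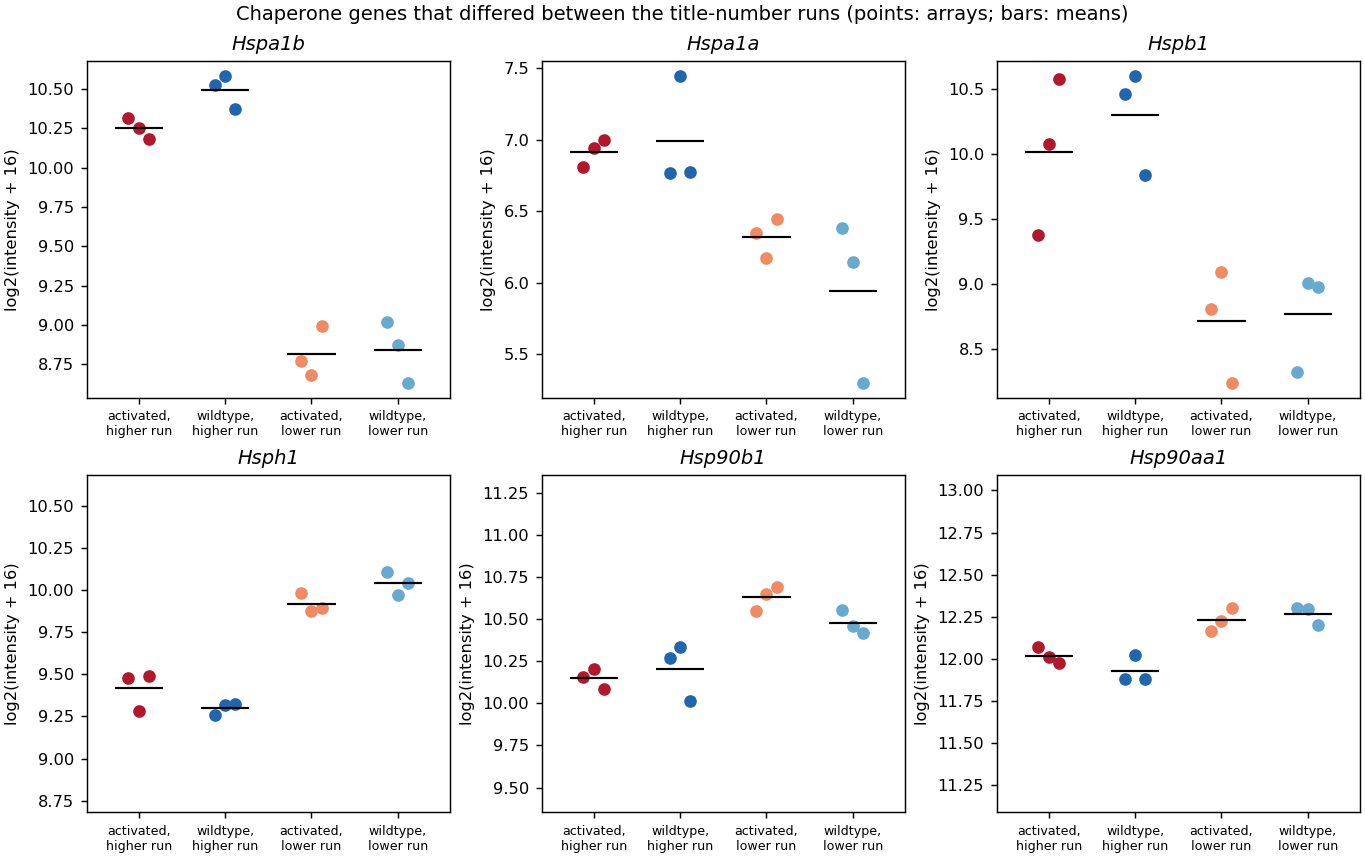
Level of 6 genes on each array, as log2(intensity + 16), in activated and wildtype kidneys of the higher and then the lower run; points are arrays, bars are means of 3, and each panel has its own axis. Hspa1b, Hspa1a and Hspb1 lie higher in the higher run, and Hsph1, Hsp90b1 and Hsp90aa1 lie lower there, in both genotypes.

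The ER and mitochondrial chaperones had run differences of both signs, most of them not past the threshold. Hspa5 averaged 12.61 ± 0.09 in the higher and 12.74 ± 0.04 in the lower run, a difference of -0.13 at an adjusted p of 0.0959, while Dnajb9 differed by 0.21, Dnajc3 by 0.20, Dnajb11 by -0.20 and Dnajc10 by -0.06, none past the threshold. Hspa5 differed by -0.37 on the values as deposited (adjusted p 0.00272) and by -0.24 as the mean of its 2 probe sets (adjusted p 0.0486), and it passed under 4 of 19 alternatives, among them without activated replicate 6 (-0.16, adjusted p 0.046). Hspa9 averaged 10.19 ± 0.24 in the higher and 9.81 ± 0.14 in the lower run, a difference of 0.38 ± 0.11 at an adjusted p of 0.0364. Its probe sets did not all share that direction. Hspe1 averaged 12.00 ± 0.07 in the higher and 12.20 ± 0.11 in the lower run, a difference of -0.21 ± 0.06 at an adjusted p of 0.0395 (-0.38 on the values as deposited). Hspd1, which is transcribed away from the same stretch of DNA as Hspe1, differed by -0.10 at an adjusted p of 0.394. Dnaja3 differed by 0.27 at an adjusted p of 0.154.

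Dnajb4 and Dnajc5 passed between the runs among the 38 DnaJ genes (5.26%, against 11.1% of all genes). Dnajb4, a cytosolic partner of HSP70, read 9.58, 9.70 and 9.42 in activated and 9.66, 9.16 and 9.46 in wildtype kidneys of the higher run, against 8.99, 8.69 and 9.11 in activated and 8.78, 9.15 and 9.0 in wildtype kidneys of the lower run. The lowest array of the higher run and the highest of the lower run were almost level, and the difference was 0.55 ± 0.11 at an adjusted p of 0.00481. Dnajc5, the cysteine string protein of secretory vesicles, averaged 9.82 ± 0.15 in the higher and 9.50 ± 0.19 in the lower run, a difference of 0.33 ± 0.09 at an adjusted p of 0.0352. Hspa14, an HSP70 that works at the ribosome with Dnajc2, averaged 8.11 ± 0.15 in the higher and 8.61 ± 0.24 in the lower run, a difference of -0.49 ± 0.11 at an adjusted p of 0.00926, whereas Dnajc2 differed by -0.10 (adjusted p 0.739). Dnajb1 averaged 10.31 ± 0.08 in the higher and 10.48 ± 0.16 in the lower run, at an adjusted p of 0.213. Dnaja1 averaged 11.33 ± 0.08 in the higher and 11.56 ± 0.15 in the lower run, at an adjusted p of 0.0546. Its runs did not overlap but almost touched, at 11.44 in the higher and 11.45 in the lower run. Its dimmer probe set differed by -0.02, and there the runs overlapped. In all, 9 of the 61 genes (14.8%) did not overlap between the runs, against 6.2% of all genes. Hspa1b, Hspa1a, Hspb1 and Dnajb4 were above the lower run (6.56%, against 4.24% of all genes), and Hsph1, Hspa14, Hsp90b1, Hsp90aa1 and Dnaja1 were below it (8.20%, against 1.95%).

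The run difference was also taken within each genotype, where the 2 comparisons share no array. Within activated kidneys 2 genes passed (3.28%, against 2.78% of all genes), Hspa1b with 1.43 ± 0.13 (adjusted p 0.00079) and Hsp90b1 with -0.48 ± 0.10 (adjusted p 0.0462). Without activated replicate 1, 3, 5 or 6 that count was 1, since Hsp90b1 no longer passed, and without activated replicate 4 Hsp90b1 was lost too. Within wildtype kidneys 4 passed (6.56%, against 5.09% of all genes): Hspa1b with 1.65 ± 0.12 (adjusted p 0.00023), Hspb1 with 1.53 ± 0.23 (adjusted p 0.00772), Hsph1 with -0.74 ± 0.09 (adjusted p 0.00276) and Hsp90aa1 with -0.34 ± 0.08 (adjusted p 0.0388). Hsp90aa1 no longer passed there when any 1 of the wildtype arrays was left out. In activated kidneys Hspb1 differed by 1.30 ± 0.31 (adjusted p 0.0646) and Hsph1 by -0.50 ± 0.12 (adjusted p 0.073). The test of the difference between the genotypes gave -0.22 ± 0.18 for Hspa1b, -0.23 ± 0.43 for Hspb1 and 0.24 ± 0.14 for Hsph1, with adjusted p of at least 0.946. Of the 61 genes, 52 (85.2%) had the same sign of run difference in both genotypes, against 66.0% of all genes.

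**Figure D4:**
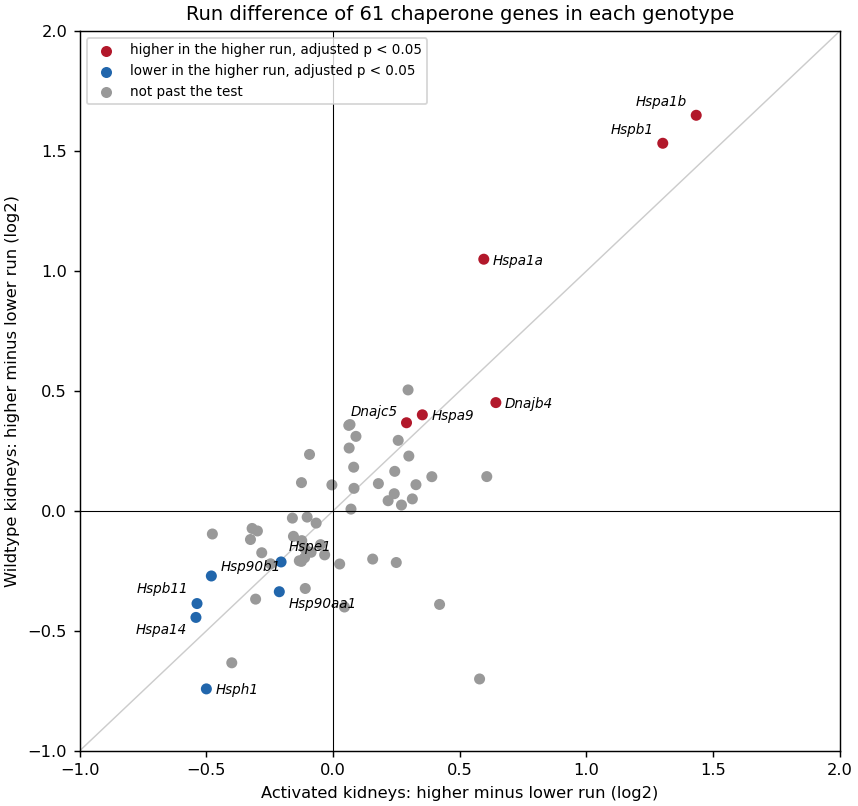
Higher minus lower run (log2) within activated kidneys (x axis) against the same within wildtype kidneys (y axis) for the 61 genes; the diagonal marks equal differences, and colour marks the genes past the test with genotype as a term. Hspa1b, Hspb1 and Hspa1a lie at the upper right, higher in the higher run in both genotypes, and Hsph1 at the lower left.

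Genes with several probe sets gave a second reading of the run difference. All 3 probe sets of Hspa1b were higher in the higher run, by 1.54 to 1.62, and both of Hspb1 were, by 1.42 and 1.16. The 3 probe sets of Hsp90aa1 all read -0.27, those of Hsph1 -0.62 and -0.52, those of Hsp90b1 -0.38 and -0.72, and those of Hspa14 -0.49 and -0.38. These genes kept their direction over every probe set. Hspa9 did not: its 4 probe sets read 0.38, 0.13, 0.10 and -0.45, and the mean of them differed by 0.04. Hspb11 had a second probe set at 0.05, against -0.46 for the one used, and their mean differed by -0.21. The 4 probe sets of Hspa8 read -0.17, -0.22, -0.61 and -0.45, and the 2 of Hspa5 read -0.13 and -0.34. Hspa4 read 0.13 with the brightest and -0.33 and -0.38 with the other 2, and Hspa1a had 1 probe set only.

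**Figure D5:**
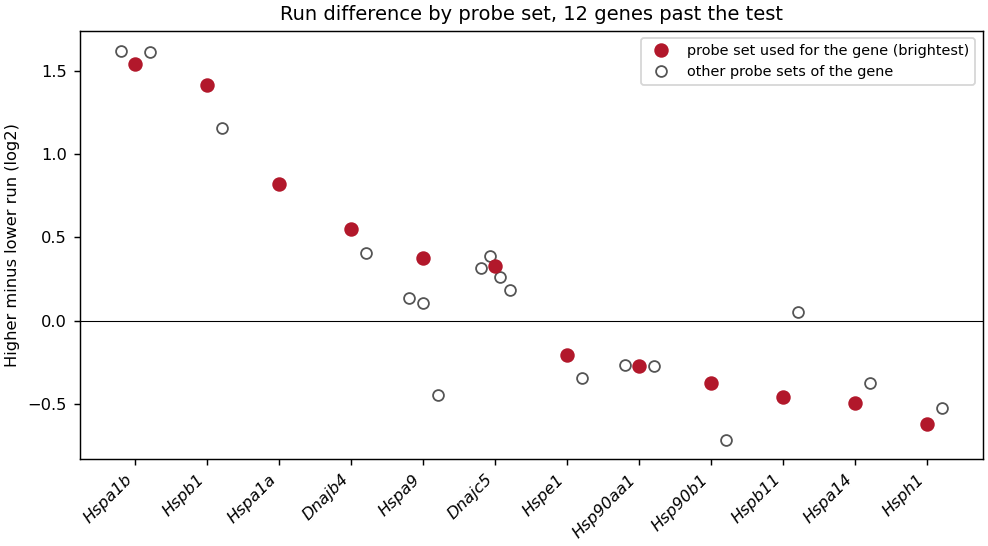
Higher minus lower run (log2) for each probe set of the 12 genes past the test; filled points are the brightest probe set, used for the gene, and open points are the others, spread sideways for legibility. The probe sets of Hspa9 and Hspb11 lie on both sides of 0, and those of the other genes with several lie on 1 side.

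Partners of these chaperones outside the 61 genes were taken from 6 lists. Between the runs, with genotype as a term, 6.94% of all genes were higher and 4.19% lower in the higher run. Of 23 measured helpers of HSP70 and HSP90, 1 was higher and 4 were lower in the higher run, with a median of -0.17 against -0.02 over all genes. The one that was higher, Cryab, the small heat shock protein alpha-B crystallin, averaged 9.41 ± 0.24 in activated and 8.93 ± 0.32 in wildtype kidneys of the higher run, against 5.92 ± 0.23 in activated and 6.13 ± 0.22 in wildtype kidneys of the lower run (SD, n = 3 each). Its difference of 3.15 ± 0.17 (adjusted p 2.03e-08) was larger than that of any of the 61 genes. Those that were lower were Ahsa2 (-0.51 ± 0.11, adjusted p 0.00661) and Chordc1 (-0.30 ± 0.08, adjusted p 0.0229), with Ahsa1 and Fkbp5, named after their values were seen. All 4 encode proteins that act on or with HSP90, a trait that the choice of this list made likely. Of 6 listed genes of the heat shock factors and their regulators, 3 were measured, and Hsf1 was not among them. None of the 3 passed. Hsf2 and Hsf4 were below the bacterial limit, and Hsbp1, an HSF1-binding protein, differed by -0.02.

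The CCT chaperonin and prefoldin, which fold actin and tubulin, had 2 of 13 genes lower in the higher run, Cct8 by -0.47 ± 0.08 and Pfdn5 by -0.32 ± 0.09, and 0 higher. Of 27 genes of the ER unfolded protein response and ER folding, 6 were higher and 2 lower. Asns, an amino acid synthesis gene induced by that response, differed by 1.31 ± 0.16, Herpud1, which acts in ER degradation, by 0.95 ± 0.19, and Pdia6, an ER disulfide isomerase, by -0.55 ± 0.11. Of 12 mitochondrial genes 1 was higher and 3 lower, and the HSP70 exchange factors Grpel1 and Grpel2 differed in opposite directions, by -0.31 ± 0.09 and 0.40 ± 0.12. Of 26 proteasome subunits 0 were higher and 2 lower, Psmc4 by -0.86 ± 0.18 and Psmc6 by -0.26 ± 0.07, with a median of -0.13. The list counts stand beside 6.94% of all genes higher and 4.19% lower in the higher run, and the lists are small. In activated against wildtype kidneys, with the run as a term, 0 genes of these 6 lists passed.

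Other features of the arrays moved with the run, where 11.1% of all genes passed in either direction with genotype as a term. Of 6 macrophage markers 4 were higher in the higher run (Csf1r, Cd68, Lyz2 and C1qa), and their summed intensity was 1514 to 2307 in the higher and 604 to 1196 in the lower run. Of 4 measured erythroid markers 2 were lower (Hbb-bh1 and Hba-x), with a sum of 127 to 199 in the higher and 607 to 1468 in the lower run. Csf1r, Cd68, Lyz2, Hbb-bh1 and Hba-x passed in both genotypes. With genotype as a term, Six2 and Cited1 of the nephron progenitors, and Wt1 and Podxl of mesenchyme and podocytes, were also higher in the higher run. Elavl4 was the 1 neuron marker and Tnnt2 the 1 muscle marker that passed, both higher there. Of 5 measured neuron markers 2 had positive differences, and of 7 muscle markers 4 did. Tnnt2 had a 12-array mean below the bacterial limit. In wildtype kidneys the neuron markers Dcx and Stmn2 were lower in the higher run, by -0.64 and -1.61, both past the test. In activated kidneys Dcx was higher in the higher run, by 2.58, and passed too. Six2 differed by 1.84 in activated kidneys (adjusted p 0.00464) and by 0.12 in wildtype kidneys (adjusted p 0.735), and the difference between the genotypes passed (adjusted p 0.0253). Cited1 differed by 2.47 in activated and 0.48 in wildtype kidneys, and Elavl4 by 1.42 in activated and 0.27 in wildtype kidneys, each past the test in activated kidneys. The stromal marker Foxd1 differed by 0.06 in activated kidneys and by -0.65 in wildtype kidneys (adjusted p 0.00598 in wildtype), and no stromal or endothelial marker passed with genotype as a term. The log2 ratio of the 5′ over the 3′ control probe sets was averaged for Gapdh and actin as a sign of RNA integrity. It was -2.44 to -1.14 in the higher and -2.14 to -0.28 in the lower run. With this ratio as a covariate 13 of the 61 genes passed between the runs, and the share of all genes there is not given. The part of these markers in the run differences of the chaperone genes was not tested. In such whole kidneys, fewer cells of a type and less RNA per cell cannot be told apart.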

How the data were processed

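RNA from 12 arrays was analysed, in the groups given by the genotype labels. The authors deposited 1 intensity on a linear scale per probe set and array, for 22690 probe sets; each array had the same 2% trimmed mean (250.099 to 250.126), so the deposited intensity values had been scaled per array. The labels name a 3′ expression labelling kit, but the summarising software is not stated in the sources used here. Depth does not apply to arrays, and the number of arrays limits the precision.

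The values were taken as log2(intensity + 16), which understates fold changes of dim genes, and quantile normalised, since array quartiles differed by up to 0.29. The 20380 probe sets with 1 symbol in the platform annotation gave 12393 genes, each represented by its brightest probe set; all 61 chaperone genes matched the RefSeq gene table. Hsp90ab1 and Hspbap1 are not analysed here. The fits used limma 3.58.1 in R 4.3.3 with a variance trend and Benjamini-Hochberg adjustment over all 12393 genes (threshold 0.05) in 8 comparisons; the fit was tested on simulated data. Figures were drawn with matplotlib 3.10.9. Named genes were 26 fixed symbols (24 measured) and every gene past the threshold (up to 10 per comparison). The genes with the 5 smallest unadjusted p of each comparison and up to 3 genes per list were added. A few others are named because they did not overlap between groups, lay below the bacterial limit or had a motif match. Hspa12b, Dnajc2 and Hspb2 are named as the end of a range, a partner gene and part of the Hspb group. The genes, lists and comparisons were chosen with earlier results of these data known. Replicate numbers were given in accession order and pair no samples. Upstream windows are RefSeq's, from GRCm38.p6. Alternatives covered normalisation, pseudocount, a filter on dim genes, probe set choice, variance model, control ratio and leaving out each array.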

Additional observations from a re-analysis of the deposited data

Results flagged for a closer look

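In 68 groups of 6 arrays (34 named genes in each genotype), a single array lay far from the other 5 in 3, and chance alone gives about 1 in 20. In activated replicate 3, of the lower run, Dnajb1 read 10.65, against 10.32 to 10.43 in the other activated arrays. In activated replicate 2, of the lower run, Dnajc5 read 9.14, against 9.56 to 9.79 in the others, and its run difference was 0.33 over all arrays. In activated replicate 6, of the higher run, Hspa9 read 10.56, against 9.64 to 9.98 in the others. That replicate and replicate 2 had the highest 5′ to 3′ control ratios of the 12 arrays, at -1.14 and -0.28 (log2). The ratio served as a covariate among the alternatives, but its part in these single readings was not tested.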

How the results depend on the processing

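The counts of chaperone genes past the threshold between genotypes, and for the difference of that effect between the runs, were 0 under every alternative run and with any array left out. The count of 12 between the runs, with genotype as a term, was 15 on the values as deposited (6 higher, 9 lower) and 8 with arrays centred on their medians (5 higher, 3 lower), and 8 to 13 when each array was left out in turn. Hspa1b, Hspb1, Hspa1a, Dnajb4, Hsph1 and Hspa14 passed under all 19 alternatives; Hsp90b1 passed under 18, Hsp90aa1 under 17, Hspa9 and Hspb11 under 11, Dnajc5 under 10 and Hspe1 under 8. Within activated kidneys the count of 2 was 1 without the variance trend, and 1 to 3 with each array left out. Within wildtype kidneys the count of 4 was 8 on the values as deposited and 7 with median centring, and 3 with any array left out. The shares of all genes under these alternatives are not given here. These counts therefore describe the chaperone genes only and cannot be set against the change over all genes under each setting. Hspa5 passed under 4, and Hspa8 and Dnaja1 under 2 each, of the same 19. Hspb1 in activated kidneys, not past the threshold above, passed under 4 of 12 alternatives, with an adjusted p of 0.0144 to 0.229. Leaving out an array of a run leaves 2 arrays in a group there. No difference past the threshold reversed. No paired analysis was possible because the labels give no replicate numbers that the groups share. The 9 dim genes read near the bacterial controls, so their differences are limited by signal over background.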

Other observations

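Several dimmer probe sets of chaperone genes, which were not used for their genes, varied widely between arrays. The second probe set of Dnajb1 read 9.04 and 9.03 in activated replicates 2 and 6 and 8.65 and 8.35 in wildtype replicates 2 and 5, and between 6.61 and 7.28 on the other 8 arrays. A dim probe set of Dnajb6 read 8.06 and 8.66 in those activated arrays and 8.14 and 8.02 in those wildtype arrays. On the other 8 arrays it read 6.47 to 7.44. The brightest probe sets spanned 10.19 to 10.65 for Dnajb1 and 10.59 to 10.99 for Dnajb6 over the 12 arrays. These 4 arrays include the 3 with the highest 5′ to 3′ control ratios (-0.28, -1.14 and -1.27 on the log2 scale), and the part of that ratio was not tested.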
